A study of Mus musculus with 8 samples.

Results

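The genes described here encode the lysosome and the secretory granules of CD8+ T cells: lysosomal membrane proteins, hydrolases, cathepsin proteases, granule cargo other than granzymes and perforin, and the proteins that move and release granules. Of 38 listed genes, 36 had an annotated probe on the array, with 59 probes among all 25697. Probes of Npc1 and Stx11 were not analysed here. A probe was tested where its detection p-value was under 0.05 on at least 4 of the 8 arrays, which kept 50 of the 59 probes and 33 genes, out of 11270 probes and 7759 named genes in all. Of the 59 probes, 49 were detected on all 8 arrays.

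The samples were CD8+ T cells of C57BL/6 mice, in 2 groups. One group came from mice knocked out for ASC, the adaptor protein encoded by Pycard that assembles inflammasomes, and the other from wild type mice. Each group had 4 samples with 1 Illumina MouseRef-8 v2.0 bead array each, and both were of the same labelled strain. The sources used here do not describe the making of the knockout, or the purification or any stimulation of the cells. They also do not state that replicates were separate animals, so each p-value reflects sample-to-sample spread that could be technical.

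Cytotoxic T cells keep their killing proteins in secretory lysosomes, organelles that share membrane proteins, hydrolases and proton pumps with ordinary lysosomes. On contact with a target the granules move to the synapse and fuse with the plasma membrane through a chain of tethers and SNARE proteins, and inherited loss of several of these proteins causes haemophagocytic lymphohistiocytosis in humans. Serpins and cystatins in the same cells restrain the proteases that the granules hold. Many lysosomal genes share a promoter element, the CLEAR element, built around the core CACGTG and bound by the transcription factor TFEB.

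Promoter windows from RefSeq (build GRCm38.p6, 250 bases before to 50 after each gene's start) were found for 32 of the 38 genes. A gene with several annotated starts has several windows, as 5 of the 32 genes do with 2 each, and was counted if any window held the sequence. The core CACGTG, which reads the same on both strands, stood in 11 of these 32 genes, or 34.4%, against 8.09% of all 27025 genes with a window. Per window this was 11 of 37, or 29.7%, against 7.15% of all 32851 windows. The longer TCACGTGA, which contains that core and is also a palindrome, stood in 4 of the 32 genes, or 12.5%, against 1.12% of all genes, and the full CLEAR palindrome stood in 0 of the 32, against 0.37% of all genes. Among 115 other lysosome and granule genes with a window, 30 held CACGTG, or 26.1%, and 13 held TCACGTGA, or 11.3%. The full palindrome stood in 5 of these 115, or 4.35%. The T-box sequence AGGTGTGA, the kind of element that T-bet binds, was searched on both strands as AGGTGTGA and TCACACCT because the title of the study names T-bet. It stood in Nkg7 and Rab27a, 2 of the 32 genes or 6.25%, against 1.48% of all genes. Of the 115 other lysosome and granule genes, 2 held it, or 1.74%. These matches are letters in a window and do not show binding.

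The windows of the 4 genes with TCACGTGA are given first, as the longest version of the lysosomal element found in the list, then those of the 2 genes with the T-box sequence, and last that of Serpinb6b, the gene that passed the test below. Capitals mark TCACGTGA in Ctsa, Ctsd, Atp6v0d1 and Atp6v1a, and AGGTGTGA or TCACACCT in Nkg7 and Rab27a. The marked copies of TCACGTGA overlapped no T-box match, and the marked T-box matches overlapped no CACGTG. Rab27a has 2 windows, and the one printed holds the T-box sequence while CACGTG stands in the other. Serpinb6b held neither CACGTG nor the T-box sequence, so nothing is capitalised.
Ctsa promoter, chr2:164833523-164833822, plus strand: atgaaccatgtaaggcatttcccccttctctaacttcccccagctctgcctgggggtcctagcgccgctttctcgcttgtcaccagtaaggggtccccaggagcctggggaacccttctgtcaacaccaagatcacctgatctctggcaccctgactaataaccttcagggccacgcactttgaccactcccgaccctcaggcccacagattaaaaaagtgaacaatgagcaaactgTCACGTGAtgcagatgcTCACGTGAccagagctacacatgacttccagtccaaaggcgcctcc
Ctsd promoter, chr7:142387778-142388077, minus strand: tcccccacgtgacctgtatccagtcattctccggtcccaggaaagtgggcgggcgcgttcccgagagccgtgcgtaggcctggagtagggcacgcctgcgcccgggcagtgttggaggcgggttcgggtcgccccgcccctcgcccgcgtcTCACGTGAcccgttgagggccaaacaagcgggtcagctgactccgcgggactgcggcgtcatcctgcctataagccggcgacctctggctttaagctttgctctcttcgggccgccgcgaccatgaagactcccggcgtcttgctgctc
Atp6v0d1 promoter, chr8:105566015-105566314, minus strand: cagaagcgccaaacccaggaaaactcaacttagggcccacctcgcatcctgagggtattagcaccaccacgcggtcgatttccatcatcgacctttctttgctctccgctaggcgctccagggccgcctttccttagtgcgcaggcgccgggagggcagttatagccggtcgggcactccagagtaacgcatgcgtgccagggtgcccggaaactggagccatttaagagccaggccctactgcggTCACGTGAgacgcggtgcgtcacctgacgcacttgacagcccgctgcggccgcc
Atp6v1a promoter, chr16:44139210-44139509, minus strand: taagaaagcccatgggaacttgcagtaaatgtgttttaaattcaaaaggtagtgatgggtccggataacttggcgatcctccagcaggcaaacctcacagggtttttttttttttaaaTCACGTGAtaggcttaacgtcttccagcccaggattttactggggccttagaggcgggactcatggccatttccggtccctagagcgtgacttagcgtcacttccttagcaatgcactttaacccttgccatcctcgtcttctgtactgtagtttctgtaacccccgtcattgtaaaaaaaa
Nkg7 promoter, chr7:43436888-43437187, plus strand: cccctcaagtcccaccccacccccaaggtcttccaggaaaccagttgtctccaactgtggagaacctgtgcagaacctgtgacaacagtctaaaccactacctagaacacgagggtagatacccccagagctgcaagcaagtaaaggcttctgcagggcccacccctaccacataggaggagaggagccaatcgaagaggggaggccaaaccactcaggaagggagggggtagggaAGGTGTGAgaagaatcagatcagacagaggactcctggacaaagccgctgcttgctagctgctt
Rab27a promoter, chr9:73044560-73044859, plus strand: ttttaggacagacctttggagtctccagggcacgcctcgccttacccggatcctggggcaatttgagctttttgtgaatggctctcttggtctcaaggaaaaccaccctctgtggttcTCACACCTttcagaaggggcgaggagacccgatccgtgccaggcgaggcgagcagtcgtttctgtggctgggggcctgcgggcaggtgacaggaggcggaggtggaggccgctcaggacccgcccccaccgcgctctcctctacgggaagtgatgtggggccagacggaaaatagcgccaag
Serpinb6b promoter, chr13:32965011-32965310, plus strand: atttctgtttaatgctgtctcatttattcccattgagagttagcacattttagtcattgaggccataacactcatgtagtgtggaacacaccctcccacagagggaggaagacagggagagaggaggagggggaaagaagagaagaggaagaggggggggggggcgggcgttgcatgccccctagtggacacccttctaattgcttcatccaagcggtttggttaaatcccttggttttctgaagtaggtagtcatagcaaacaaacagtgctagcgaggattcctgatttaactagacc

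The knockout checked out at its own gene. Pycard (probe ILMN_2936476) was detected on 0 of 4 knockout arrays and on 4 of 4 wild type arrays, and its level in knockout cells was lower by a factor of at least 12.7 (limma adjusted p = 1.15e-09). This bound sets the wild type mean against the lowest signal among detected probes of each knockout array. Median probe signals ran from 127.9 to 131.5 in the knockout and from 130.0 to 133.8 in wild type, and mean signals from 498.7 to 520.8 and from 518.5 to 581.6. Of T cell markers, Cd8b1, Cd3e, Cd3d and Cd3g were detected on all 8 arrays, while the 1 probe of Cd8a, which encodes the other CD8 chain, and that of Cd4 did not pass the detection filter.

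Lysosome and granule genes differed little between ASC knockout and wild type cells. The protease inhibitor gene Serpinb6b was called higher in the knockout, by 0.53 on the log2 scale, and 0 of the 33 genes were called lower. A call means a limma p-value adjusted by the Benjamini-Hochberg method over all 11270 tested probes of under 0.05. Over all tested genes, 1.13% were called, with 0.619% higher and 0.516% lower, so 1 call among 33 genes lies near that background. Of single probes, 1 of the 50 was called, against 0.843% of all tested probes. At an unadjusted limma p under 0.05, 3 genes were higher and 1 was lower at their brightest tested probe, or 12.1% of the 33, against 13.0% of all tested genes (7.27% higher and 5.68% lower). All values of one group lay above all values of the other for 1 of the 33 genes, Serpinb6b, or 3.03%, against 8.43% of all tested genes (4.52% higher and 3.91% lower). In bulk samples, fewer cells of a type and less RNA per cell cannot be told apart.

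The sizes of the differences also resembled those of the array at large. The median log2 difference, knockout minus wild type, was 0.03 over the 33 genes and 0.00 over all tested genes, and the median size without sign was 0.11 and 0.10. Of the 33 genes, 17 were above 0 and 16 below. Scaling each array to the same median over all probes moved the median of all tested genes to -0.08, and under it 13 of the 33 were above 0 and 20 below. Differences ran from -0.34 for Ctss to 0.53 for Serpinb6b, and their standard errors from 0.0729 to 0.188. The 95% interval of every one of the 33 genes lay inside a 2-fold difference in either direction, as it did for 98.4% of all tested genes. For 29 of the 33 it lay inside 1.5-fold (87.1% of all tested genes), the exceptions being Serpinb6b, Ctsh, Ctss and Ctsa.

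**Figure D1:**
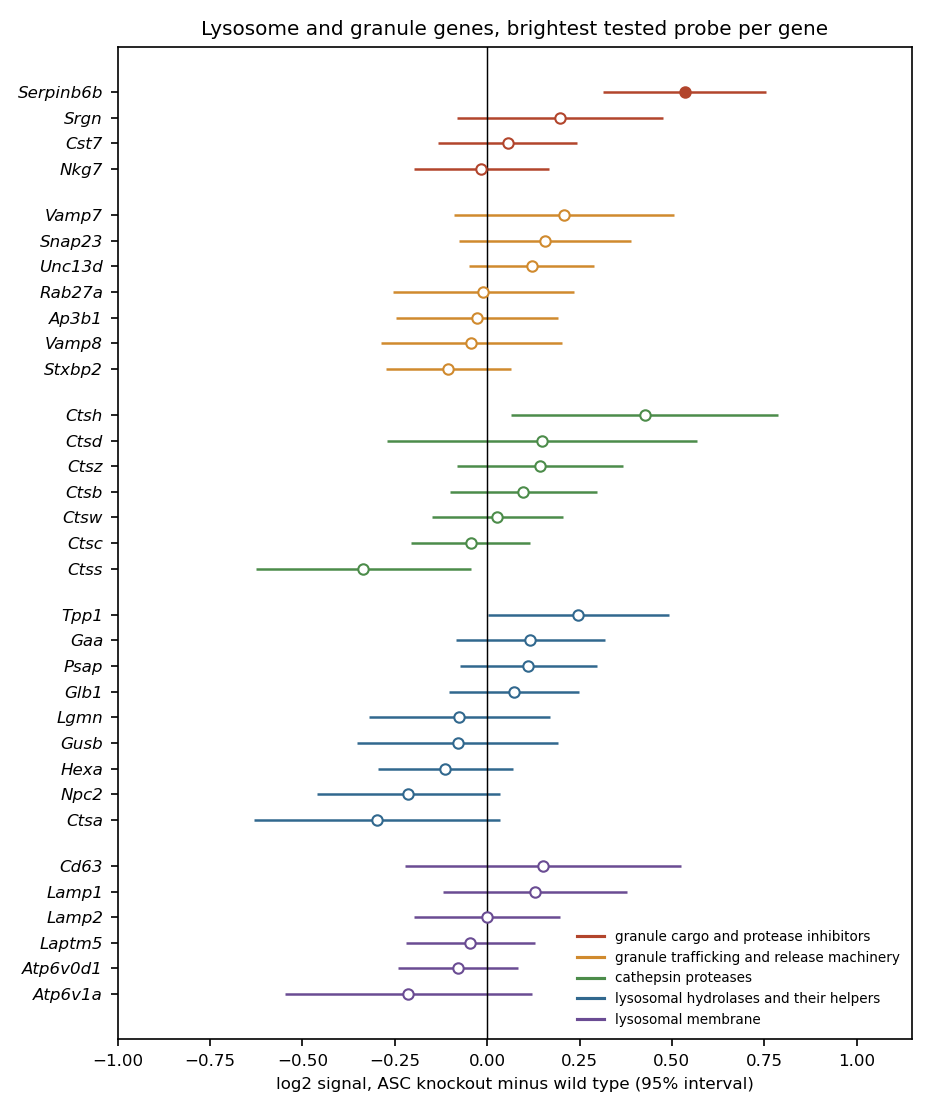
The log2 difference in signal, ASC knockout minus wild type, of each of the 33 tested genes at its brightest tested probe, with 95% intervals from limma and colours for the role of the gene. The filled point, Serpinb6b at 0.53, is the only gene with an adjusted p under 0.05, and the other 32 open points lie between -0.34 and 0.43.

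**Figure D2:**
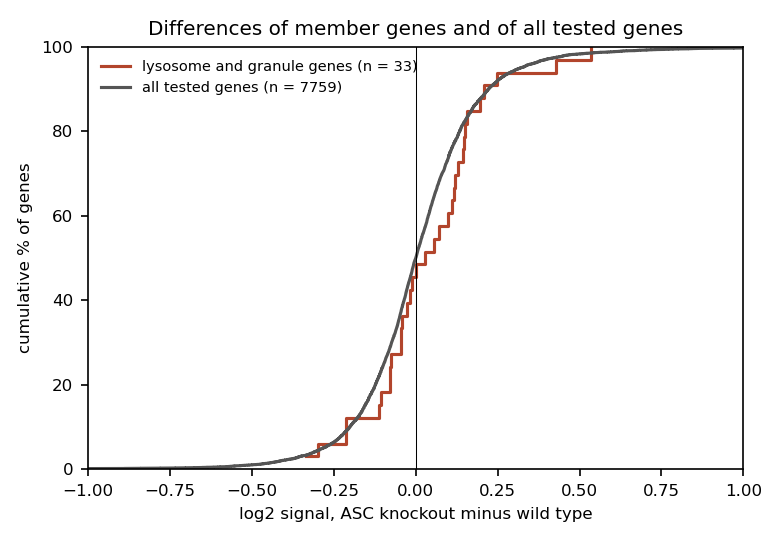
Cumulative percentage of genes (vertical axis) at or below a log2 difference, ASC knockout minus wild type (horizontal axis, drawn from -1 to 1), for the 33 lysosome and granule genes and for all 7759 tested genes. The curves cross 50% at 0.03 and 0.00.

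Of 4 tested genes for granule cargo and protease inhibitors, 3 were above 0, with a median of 0.13. By limma 1 was called higher and 0 lower, and at an unadjusted p under 0.05 the counts were also 1 and 0. Serpinb6b encodes an intracellular serpin that inhibits granzyme A in mice. Its normalized log2 signal (probe ILMN_2611755) was 10.82, 10.40, 10.66 and 10.53 in knockout replicates 1 to 4, against 10.07, 10.01, 10.13 and 10.06 in wild type replicates 1 to 4. Every knockout array was above every wild type array, and the knockout arrays were also more spread out, with an SD of 0.18 against 0.053 in wild type. The difference was 0.53 ± 0.0989 (SE, n = 4 per group, 95% interval 0.31 to 0.75, limma adjusted p = 0.0423), or 1.45-fold. In the deposited signals before normalization the means were 1597 ± 239 in the knockout and 1233 ± 53.8 in wild type (SD, n = 4 each).

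The call of Serpinb6b was close to its threshold. It held without knockout replicate 2 (limma adjusted p = 0.037). It was lost without knockout replicate 1 (0.0766), 3 (0.108) or 4 (0.0867) and without wild type replicate 1 (0.0978), 2 (0.139), 3 (0.0766) or 4 (0.0893), while the difference stayed between 0.46 and 0.60. Under the scaling to the median over all probes it was 0.42 and not called (limma adjusted p = 0.104). The call was also lost without the detection filter (limma adjusted p = 0.0677) and with the replicate number as a block (limma adjusted p = 0.0764). Serpinb6b has close paralogs, among them Serpinb6a, and whether the probe separates them was not tested.

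On the same knockout arrays, the summed signals of markers listed for NK cells and for CD4 and regulatory T cells were higher. The summed signal of 4 tested NK markers of 6 with a probe (Klre1, Klrb1b, Klrb1c and Fcgr3, the last also listed as a myeloid marker) ran from 623.8 to 914.2 in the knockout and from 464.7 to 566.2 in wild type, with 4 of 4 above 0 and 0 called. That of 6 tested CD4 and regulatory T cell markers ran from 5344 to 6462 in the knockout and from 3679 to 4269 in wild type, with 4 of 6 above 0 and Foxp3 called. Its brightest markers, Tnfrsf4 and Ctla4, supplied most of that sum. They were at 0.44 and 0.63 and not called (limma adjusted p = 0.24 and 0.166). Foxp3 and Il2ra were at 1.09 and 0.51, and Ikzf2 and Zbtb7b at -0.22 and -0.0045. Of the NK markers, Klre1 and Klrb1b were at 0.49 and 0.73, and Klrb1c and Fcgr3 at 0.04 and 0.03. Probes of the NK cell receptor gene Ncr1 and of Cd4 did not pass the filter. The sum of 10 tested CD8 T cell markers ran from 98429 to 102043 in the knockout and from 95449 to 100865 in wild type. Of these markers 6 were above 0 and 4 below, with Cd28 at 0.34 and Thy1 at 0.17, and 0 were called. Within the knockout, the NK sum was highest in replicate 2, where Serpinb6b was lowest and where Klre1, the brightest NK marker, and Fcgr3 were highest. Klrb1b and Klrb1c were highest in knockout replicate 1, where Serpinb6b was highest and Klre1 lowest. The CD4 and regulatory T cell sum was highest in replicate 4. Which cells this signal came from, and their part in the difference of Serpinb6b, was not tested.

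The other cargo genes did not pass the test. Srgn encodes serglycin, the proteoglycan that packs granule proteins, and its 2 probes were at 0.20 ± 0.126 and 0.15 ± 0.111 (log2 difference, SE). At the brighter probe, ILMN_2751527, Srgn was at 10.47, 10.43, 10.90 and 10.93 in the knockout, against 10.40, 10.53, 10.50 and 10.51 in wild type. At the dimmer probe, ILMN_2722732, it was at 10.45, 10.88, 10.44 and 10.46 in the knockout, against 10.46, 10.43, 10.45 and 10.30 in wild type. Knockout replicates 3 and 4 stood high at 1 probe and knockout replicate 2 at the other, so the 2 probes did not rank the arrays alike. Cst7, the gene for cystatin F, which inhibits cathepsin C, was at 0.06 ± 0.0848 (-0.04 with median scaling over all probes), between 10.49 and 10.65 in the knockout and between 10.36 and 10.62 in wild type. Nkg7, a granule membrane protein needed for efficient degranulation, was at -0.02 ± 0.0824, between 14.56 and 14.64 in the knockout and between 14.47 and 14.75 in wild type. The groups overlapped for both genes. Serpinb9, an inhibitor of granzyme B, was detected on 0 of 4 knockout and 0 of 4 wild type arrays and was not tested.

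The cathepsin genes lay on both sides of 0 without a call. Of 7 tested genes 5 were above 0 and 2 below, with a median of 0.10. By limma 0 were called in either direction, and 1 was higher and 1 lower at an unadjusted p under 0.05. Ctsh, which encodes a lysosomal aminopeptidase, had 6.55, 6.66, 6.51 and 6.32 in knockout replicates 1 to 4, against 6.39, 5.99, 5.62 and 6.34 in wild type replicates 1 to 4. Knockout replicate 4 lay below 2 wild type arrays, and wild type replicates 2 and 3 were the lowest of all. The difference was 0.43 ± 0.163 (SE, limma adjusted p = 0.295). It was 0.18 without background correction and 0.27 without wild type replicate 3. Ctss, an elastase-like cathepsin known for antigen presentation, had 6.99, 6.97, 7.03 and 6.87 in the knockout, against 7.62, 7.45, 7.01 and 7.13 in wild type. Wild type replicates 1 and 2 stood above the rest, and wild type replicate 3 lay within the knockout range. Its difference was -0.34 ± 0.131 (SE, limma adjusted p = 0.307), and -0.20 without background correction.

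Ctsd, the gene for the aspartic protease cathepsin D, had the largest standard error of the 33 genes. It had 6.98, 7.08, 6.29 and 6.58 in the knockout, against 6.73, 6.45, 6.89 and 6.27 in wild type, a difference of 0.15 ± 0.188 (SE), which ran from 0.034 without knockout replicate 2 to 0.295 without knockout replicate 3. It was 0.066 without knockout replicate 1, 0.043 without wild type replicate 4, and leaving out wild type replicate 3 gave 0.249. Its lowest arrays were knockout replicate 3 and wild type replicate 4. Over all 10 tested markers of macrophages, monocytes and neutrophils (of 16 with a probe), the summed signal ran from 1959 to 3777 in the knockout and from 2327 to 3067 in wild type, with 7 above 0 and 0 called. In knockout replicate 3, 8 of the 10 were at their lowest of the knockout arrays. In wild type replicate 4, 3 were at their lowest of the wild type arrays (Lyz1, Lyz2 and Csf3r) and 6 at their highest. Their part in the spread of Ctsd was not tested, and probes of the myeloid genes Cd14, Itgam, Mpo and Elane did not pass the filter. Ctsd is the only tested gene of the 33 within 20 Mb of Pycard, on chromosome 7, by the GRCm38.p6 gene table.

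None of the remaining cathepsin probes passed the test. Ctsc, whose product activates granzymes, was at -0.05 ± 0.0729 at its brightest probe and at -0.13 ± 0.0859 and -0.03 ± 0.102 at the others (log2 difference, SE). Ctsw, the gene for a cathepsin found mainly in NK and cytotoxic T cells, was at 0.03 ± 0.0799, between 12.98 and 13.11 in the knockout and between 12.88 and 13.07 in wild type. Scaling to the median over all probes turned it to -0.11. Ctsb was at 0.10 ± 0.0894, and at -0.03 under that scaling. Ctsz, a carboxypeptidase, had 2 probes of similar brightness with opposite signs, 0.14 ± 0.101 and -0.14 ± 0.109. Ctsl was detected on 0 of 8 arrays and was not tested.

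Among lysosomal hydrolases and their helpers, 4 of 9 tested genes were above 0 and 5 below, with a median of -0.08. By limma 0 were called in either direction, and 1 was higher and 0 lower at an unadjusted p under 0.05. Tpp1, the gene for tripeptidyl peptidase 1, had 7.31, 7.32, 7.0 and 7.09 in the knockout, against 7.14, 6.86, 6.76 and 6.97 in wild type. Knockout replicates 1 and 2 were above every wild type array, and replicates 3 and 4 were within the wild type range. The difference was 0.25 ± 0.11 (SE, limma adjusted p = 0.381), and 0.14 without background correction. Ctsa, whose product protects other lysosomal enzymes, had 6.85, 6.65, 7.01 and 6.74 in the knockout, against 6.86, 6.85, 7.47 and 7.27 in wild type at its brightest probe. Wild type replicates 3 and 4 stood above the other 6 arrays, and the difference was -0.30 ± 0.15 (SE, limma adjusted p = 0.442). It was -0.17 without background correction, -0.18 without wild type replicate 3 and -0.11 as the mean of both probes. A dim second Ctsa probe, detected on 4 of 4 knockout and 3 of 4 wild type arrays, had the opposite sign, at 0.08 ± 0.125.

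Npc2, which carries cholesterol out of the lysosome, had 9.73, 9.48, 9.64 and 9.94 in the knockout, against 9.91, 10.09, 9.79 and 9.85 in wild type. Knockout replicate 4 was higher than 3 of the wild type arrays and the groups overlapped, with a difference of -0.21 ± 0.111 (SE, limma adjusted p = 0.462). The 3 tested probes of Gusb, the gene for beta-glucuronidase, were all below 0, at -0.08, -0.12 and -0.21. Psap, which encodes the precursor of the saposins that help degrade sphingolipids, was at 0.11 ± 0.0831. The glycosidase genes Gaa, Glb1 and Hexa were at 0.12, 0.07 and -0.11, and Lgmn, an asparaginyl endopeptidase gene, at -0.08, none of them called. Glb1 was at -0.03 when arrays were scaled to the median over all probes.

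Of 6 tested genes of the lysosomal membrane and its proton pump, 2 were above 0 and 4 below, with a median of -0.02. By limma 0 were called, and 0 had an unadjusted p under 0.05 at their brightest probe. Lamp1, whose product marks released granules at the cell surface, had 10.14, 9.70, 9.94 and 9.69 in the knockout, against 9.72, 9.82, 9.63 and 9.78 in wild type. Knockout replicate 1 was the highest array and the groups overlapped, at a difference of 0.13 ± 0.112 (SE), which was 0.038 without that array and 0.027 with median scaling over all probes. The brightest Lamp2 probe was at 0.00 ± 0.089, and its other 3 probes were at 0.10, 0.03 and -0.18. Laptm5, a lysosomal regulator of T cell receptor levels, was at -0.05 ± 0.0787. Cd63, the gene for a tetraspanin of granule membranes, was dim, and its tested probes were at 0.15 ± 0.168 and 0.28 ± 0.228. The value at the brighter probe ran from 0.020 without knockout replicate 3 to 0.32 without knockout replicate 1. Another Cd63 probe, detected on 1 of 4 knockout and 2 of 4 wild type arrays, was not tested.

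For the proton pump gene Atp6v0d1, 1 of 4 probes separated the groups without being called. At probe ILMN_2928320 it had 9.73, 9.74, 9.73 and 9.77 in the knockout, against 9.94, 9.93, 9.94 and 9.89 in wild type. The groups did not overlap and each spanned under 0.1, with a difference of -0.18 ± 0.0684 (SE, limma adjusted p = 0.284). The brightest probe of Atp6v0d1 was at -0.08 ± 0.0734, and its other 2 were at -0.07 ± 0.0991 and 0.06 ± 0.0943. Atp6v1a, the gene for a catalytic subunit of the same pump, was at -0.21 ± 0.15, with 8.14, 8.58, 8.09 and 7.82 in the knockout, against 8.45, 8.41, 8.46 and 8.15 in wild type. Knockout replicate 2 was the highest of all arrays for Atp6v1a, so the groups overlapped. Without that array the difference was -0.35, and without knockout replicate 4 it was -0.10.

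At their brightest probes, genes of granule trafficking and release showed the smallest spread of differences, from -0.10 for Stxbp2 to 0.21 for Vamp7. Of 7 tested genes 3 were above 0 and 4 below, with a median of -0.01. By limma 0 were called and 0 had an unadjusted p under 0.05. Rab27a, the GTPase that docks lytic granules, had 12.27, 11.98, 12.10 and 11.76 in the knockout, against 11.94, 12.03, 12.10 and 12.09 in wild type, a difference of -0.01 ± 0.11 (SE). Knockout replicate 1 was the highest of all arrays and knockout replicate 4 the lowest. Unc13d encodes Munc13-4, which primes docked granules, and its probes were at 0.12 ± 0.0762 and 0.00 ± 0.0789. Stxbp2 encodes Munc18-2, a partner of the fusion SNAREs, and was at -0.10 ± 0.0763.

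The SNARE genes Vamp7, Snap23 and Vamp8 were at 0.21 ± 0.134, 0.16 ± 0.105 and -0.04 ± 0.111 at their brightest probes (log2 difference, SE). A dimmer Vamp8 probe, ILMN_1219136, was at -0.19 ± 0.126 and not called. Vamp7 had 8.74, 8.89, 8.57 and 8.23 in the knockout, against 8.39, 8.30, 8.54 and 8.36 in wild type, where knockout replicate 4 was the lowest array and replicate 2 the highest. Ap3b1, a subunit of the adaptor that sorts proteins to lysosomes and granules, had 2 probes of opposite sign, at -0.03 ± 0.0986 and 0.21 ± 0.111. Lyst, the gene mutated in Chediak-Higashi syndrome, was not tested: 1 probe was detected on 1 of 4 knockout and 0 of 4 wild type arrays, and the other on 0 of 8. Second probes of Snap23 and Vamp7 also failed the filter, detected on 0 of 8 arrays and on 1 of 8.

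**Figure D3:**
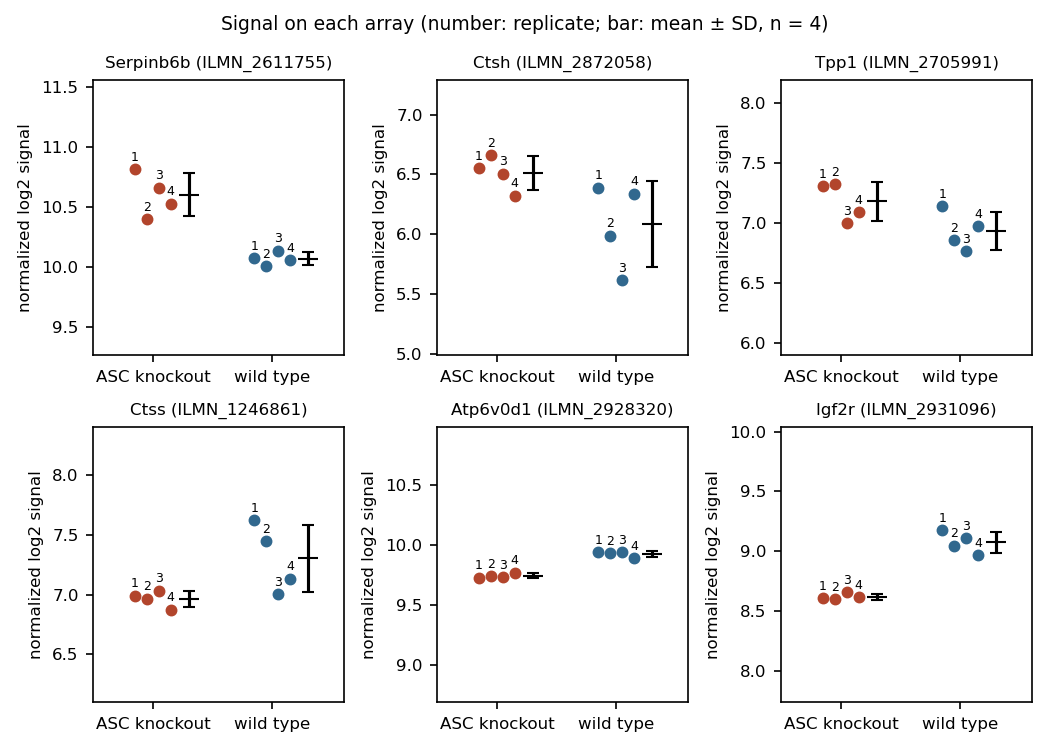
Normalized log2 signal (vertical axes, each spanning a range of the same width) on every array for 5 members and for Igf2r, with ASC knockout left of wild type, replicate numbers above the points and the mean ± SD beside them. For Serpinb6b, for the Atp6v0d1 probe and for Igf2r the groups do not overlap, while those of Ctsh, Tpp1 and Ctss do.

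**Figure D4:**
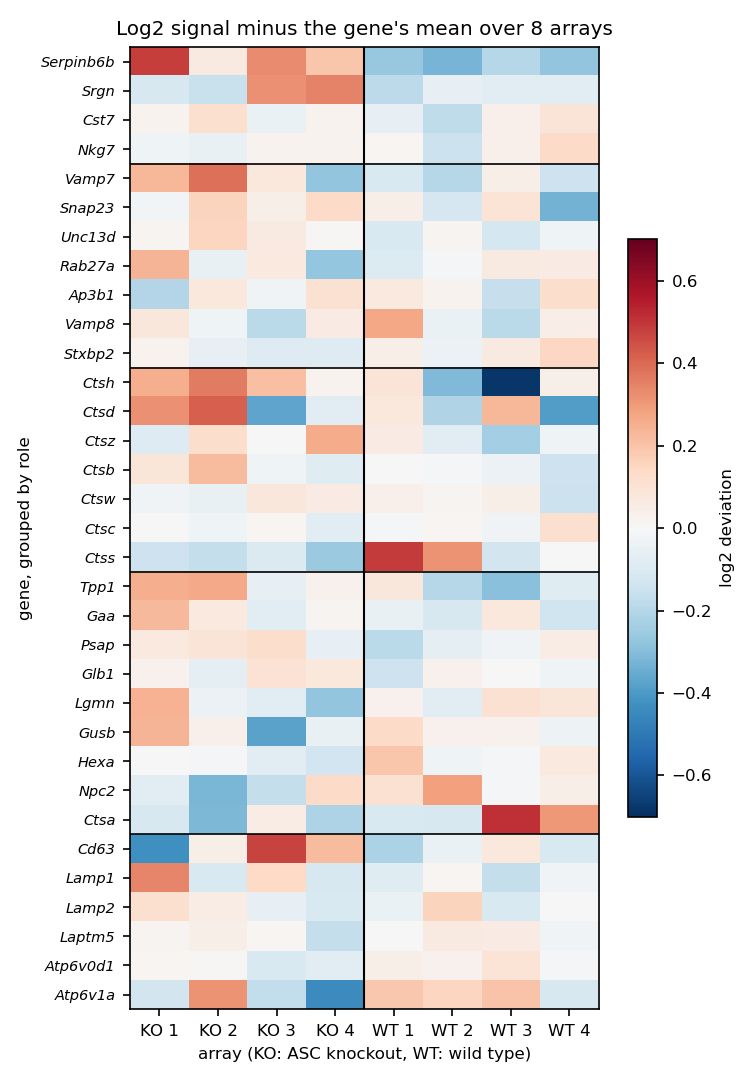
Log2 signal of each of the 33 tested genes minus its mean over the 8 arrays (colour, red above and blue below), with ASC knockout arrays left of the line and wild type arrays right of it, in rows grouped by role. Only the row of Serpinb6b is red on all 4 knockout arrays and blue on all 4 wild type arrays.

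By the median over the 33 genes, single arrays of the same group differed from each other. The median deviation of the 33 genes from their own means over the 8 arrays was 0.02, 0.04, -0.01 and -0.05 in knockout replicates 1 to 4, against 0.01, -0.04, 0.00 and -0.02 in wild type replicates 1 to 4. Knockout replicate 2 was the highest array for 9 of the 33 genes and knockout replicate 4 the lowest for 9. Over all tested genes these arrays were the highest for 14.2% and the lowest for 12.9%.

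Several genes were measured by more than 1 probe. Of 11 genes with 2 or more tested probes, 5 had probes of one sign (Cd63, Ctsc, Gusb, Srgn and Vamp8), and 6 had probes of both signs (Ap3b1, Atp6v0d1, Ctsa, Ctsz, Lamp2 and Unc13d). None of these probes was called. Probes of 1 gene can match different transcripts of it, and which ones they match was not analysed here.

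**Figure D5:**
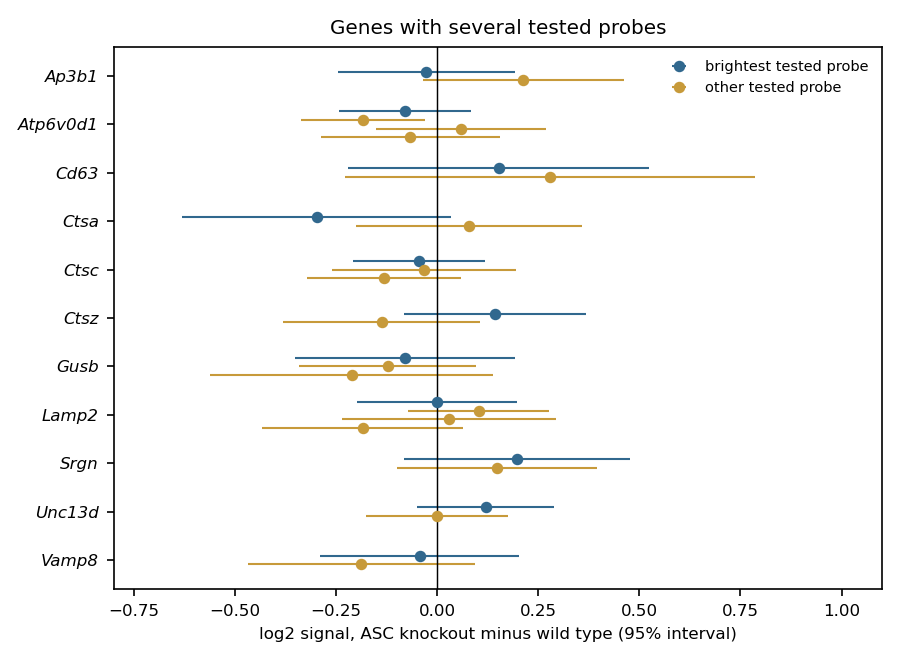
Log2 difference in signal, ASC knockout minus wild type, with 95% intervals, for every tested probe of the 11 genes with 2 or more. The brightest probe of each gene is drawn in blue and the others in yellow, and in 6 genes the points lie on both sides of 0.

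By promoter, the 10 tested genes with CACGTG had 4 above 0 and 6 below, with a median of -0.04, and the 18 tested genes with a window but without it had 8 above 0 and 10 below, with a median of -0.01. The 4 genes with TCACGTGA were at 0.15 (Ctsd), -0.08 (Atp6v0d1), -0.21 (Atp6v1a) and -0.30 (Ctsa), and 0 of them were called. The 2 genes with the T-box sequence, Nkg7 and Rab27a, were at -0.02 and -0.01.

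Other genes of the pathway gave 1 call, in the machinery that sorts enzymes to the lysosome. Of 112 tested genes outside the list, 0 were called higher and 1 lower. Over all tested genes 1.13% were called (0.619% higher and 0.516% lower), so 1 call among 112 lies near that background. At their brightest probe 12 had an unadjusted limma p under 0.05 (7 higher and 5 lower), or 10.7% against 13.0% of all tested genes. The called gene was Igf2r, the receptor that carries mannose 6-phosphate-tagged hydrolases to the lysosome and also binds insulin-like growth factor 2. At probe ILMN_2931096 it had 8.61, 8.60, 8.66 and 8.62 in the knockout, against 9.18, 9.05, 9.11 and 8.97 in wild type. All knockout arrays lay below all wild type arrays. It fell by 0.45 (SE 0.0763, n = 4 per group, limma adjusted p = 0.0271). A brighter Igf2r probe, ILMN_2931095, was at -0.21 and not called (limma adjusted p = 0.446). The call was lost without knockout replicate 1 (limma adjusted p = 0.063), 2 (0.0652), 3 (0.0665) or 4 (0.0776) or wild type replicate 1 (0.0832), 2 (0.0828) or 3 (0.0723), and held without wild type replicate 4 (0.0342).

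By group, 13 other proton pump genes had 5 above 0 and 8 below, 20 other hydrolases 10 and 10, and 13 other lysosomal membrane genes 5 and 8. The 29 sorting genes had 15 above 0 and 14 below, 24 other secretion genes 17 and 7, and 13 regulators of lysosome genes 9 and 4. Their medians lay between -0.08 for the proton pump and 0.10 for the regulators, and Igf2r was the only call. At an unadjusted limma p under 0.05 were 4 of the 13 other lysosomal membrane genes (1 higher and 3 lower), or 30.8%. Of the 24 other secretion genes it was 4, all higher, or 16.7%. That list also holds the granzyme gene Gzmm, at 0.71 ± 0.283 (SE, limma adjusted p = 0.315). The remaining groups had 3.45% to 7.69%, against 13.0% of all tested genes. After Igf2r, the smallest unadjusted p-values belonged to 2 genes of the lysosomal membrane group. Cd1d1, which presents lipids to NKT cells, was at -0.44 ± 0.101 (SE, limma adjusted p = 0.0936). Cln3, the gene of a juvenile form of Batten disease in humans, was at -0.37 ± 0.0988 (SE, limma adjusted p = 0.133). Without background correction both were called lower, together with Igf2r.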

How the data were processed

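Transcripts of CD8+ T cells were measured on 8 single-colour bead arrays, 4 ASC knockout and 4 wild type, grouped by sample title. The submitters' processing notes name GenomeStudio without a version. The files hold the deposited intensity per probe, not normalized by the authors per the file headers, with a deposited detection p-value beside it. The authors' deposited value table holds log2 values, which matched quantile-normalized uncorrected signals minus the 8-array median of the probe within 0.00059. That scaling was found from the values.

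Intensities were corrected with limma's nec function (offset 16, background inferred from the detection p-values), quantile-normalized and log2-transformed. Group differences were fitted with lmFit and eBayes on all 11270 tested probes. Probes were named by the platform annotation, updated through Entrez identifiers. Lists count a gene once, at its brightest tested probe, while a gene was called if any probe passed. Described in full were called genes, those with an unadjusted p under 0.05, the 3 largest differences in each direction and genes with probes of both signs. Of other pathway genes, called ones and the 3 smallest p-values were named, and also Gzmm as a granzyme. The members and lists were chosen with earlier results of these data known. Same-numbered replicates were treated as unpaired, since their deviations from group means correlated at 0.0139, 0.107, 0.132 and -0.0999. On 11270 simulated probes with independent noise, 200 of them changed, the fit called 91% of changes of 1 and 58% of changes of 0.5 (log2). Of its calls, 6.29% were unchanged probes. The data themselves gave 95 called probes, so these shares may not carry over to them. The number of arrays limits the precision. Alternatives changed the background model, normalization, detection filter, source of values, weights, variance model, probes per gene and replicates. Markers of B cells (2 tested), dendritic cells (2) and erythroid cells and platelets (1) were too few to describe as lists, with 0 called. The B cell markers Cd79b and Cd22 were at 0.41 and -0.26. The dendritic cell markers Siglech and Batf3 were at -0.18 and -0.55, and the erythroid marker Hba-a1 at 0.97. R 4.3.3 and limma 3.58.1 were used.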

Additional observations from a re-analysis of the deposited data

Results flagged for a closer look

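Of 66 groups of 4 values looked at, 3 had an array far from the others, where chance gives about 1 in 20. In each, Dixon's ratio, the distance from that array to its nearest neighbour over the full range of its group, passed the 95% critical value. Laptm5 was low in knockout replicate 4, at 14.71 against 14.89 to 14.92 in the other knockout arrays (ratio 0.855). Without that array its difference was 0.00, against -0.05 with all arrays. Wild type replicate 4 was low for Ctsw, at 12.88 against 13.05 to 13.07 (ratio 0.871), and without it the difference was -0.02, against 0.03. The same array was low for Atp6v1a, at 8.15 against 8.41 to 8.46 (ratio 0.838).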

How the results depend on the processing

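The count of genes called lower was 0 under all 12 alternatives and without each array. The 1 gene called higher, Serpinb6b, stayed called in 9 of the 12 alternatives. The count was 0 with median scaling over all probes, without a detection filter (limma adjusted p = 0.0677) and with the replicate number as a block (limma adjusted p = 0.0764), and 0 to 1 without 1 array. Genes lower at an unadjusted p under 0.05 numbered 2 with an offset of 50, without background correction, in the authors' deposited value table and with the replicate block, 3 with an intensity trend and robust variance, 4 with median scaling over all probes and 1 to 2 without 1 array, against 1. Those higher numbered 2 with array weights and with the intensity trend, and 4 with the mean of a gene's probes, against 3. They numbered 1 with median scaling over all probes and 1 to 4 without 1 array, with 1 without wild type replicate 2 or 3. Genes whose groups did not overlap numbered 3 lower with that scaling and 1 lower with the mean of a gene's probes, against 0 lower and 1 higher. Without 1 array they numbered 0 to 1 lower and 1 to 4 higher (4 without knockout replicate 4, 2 without knockout replicate 2 or wild type replicate 1 or 2). With fewer arrays groups separate more easily, and the share over all tested genes was not counted under these settings. These counts therefore give no result about the members. The members' median was -0.094 with median scaling over all probes, which moved the median of all tested genes to -0.079, and -0.012 with median scaling over probes detected on all 8 arrays. Other pathway genes called lower numbered 2 with an offset of 50, 3 without background correction, in the authors' table and with the intensity trend, 0 with the mean of a gene's probes and with the replicate block, and 0 to 1 without 1 array. The causes were not tested.

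The difference moved by over 1.5 times under at least 1 of the 12 alternatives for 30 of the 33 genes, and without 1 array for 27, with Serpinb6b in neither count. This is a ratio to the main difference, which genes near 0 pass easily. Serpinb6b had the largest difference of the 33, so its absence does not show that it was steadier. Of 396 values of single genes, 7 changed sign. With median scaling over all probes these were Ctsw (-0.11), Ctsb (-0.026), Cst7 (-0.036) and Glb1 (-0.029), with median scaling over probes detected on all 8 arrays Ctsw (-0.032), with array weights Nkg7 (0.0057), and with the mean of a gene's probes Ap3b1 (0.093). Leaving out 1 array moved Nkg7 between -0.069 and 0.026, Ctsw between -0.018 and 0.050, Rab27a between -0.091 and 0.080, Vamp8 between -0.11 and 0.041, Gusb between -0.17 and 0.032, Lamp2 between -0.038 and 0.052, Laptm5 between -0.066 and 0.0012, Lgmn between -0.17 and 0.0037 and Ap3b1 between -0.085 and 0.038, each of them across 0. Signals near background limit Ctsl, Serpinb9 and Lyst, which could not be tested.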
